A study of Mus musculus with 9 samples.

Results

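The mouse mitochondrial genome carries 37 genes, and they were taken from the deposited expression table as the genes whose name starts with mt-. This gave 37 of 55385 genes, the only genes of the table on chromosome MT. They comprise 13 mRNA genes, 2 rRNA genes and 22 tRNA genes, of which 28 lie on the plus strand and 9 on the minus strand. All 37 passed the filter on low counts, which left 21392 genes for the tests.

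The mRNAs specify core subunits of complex I (the mt-Nd genes), complex III (mt-Cytb), complex IV (the mt-Co genes) and ATP synthase (the mt-Atp genes), and the rRNAs and tRNAs serve the translation of these mRNAs inside the organelle. Each strand is transcribed as a long precursor, which is cut at the tRNAs that lie between the other genes, and most of the mRNAs then receive a short poly(A) tail. Proximal tubule cells of the kidney are rich in mitochondria and depend on oxidative phosphorylation to reclaim filtered solutes.

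Kidney poly(A) RNA was sequenced from 3 control mice, 3 HN mice and 3 PEC mice, all C57BL/6. HN mice, a model of hyperuricemic nephropathy, were given adenine at 0.16 g/kg with potassium oxonate at 2.4 g/kg on alternate days over 4 weeks. PEC mice went through the same procedure and received pectolinarigenin, a plant flavonoid, by mouth each day at 25 mg/kg. The comparisons ask how the kidney transcriptome of HN mice differed from that of control mice, and how that of PEC mice differed from both. The labels give control and HN mice as untreated, and whether a vehicle was given is not stated in the sources used here. The study's methods give male C57BL/6J mice aged 8 to 10 weeks in groups of 8, of which 3 per group have a library here. Adenine and oxonate were always given together, and no group received PEC without them, so their separate effects cannot be told apart. The titles of the control libraries also carry the words HN mice, and their grouping follows the labelled disease state. Total counts were 75320528, 74965874 and 78459183 in control mice 2, 4 and 5. They were 74315544, 81069646 and 74212324 in HN mice 4, 8 and 12, and 74397038, 65583215 and 57714111 in PEC mice 1, 2 and 3. Values per library are given in this order throughout.

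Several sequences are shown because the results turn on them. The tRNA genes mt-Th (histidine, chrMT:11546-11612), mt-Ts2 (serine, chrMT:11613-11671) and mt-Tl2 (leucine, chrMT:11671-11741) follow each other on the plus strand between mt-Nd4 and mt-Nd5 (GRCm38), and mt-Tl2 had the largest fitted difference between PEC and control mice among the 37 genes. Capitals mark the base that mt-Ts2 and mt-Tl2 share.
mt-Th: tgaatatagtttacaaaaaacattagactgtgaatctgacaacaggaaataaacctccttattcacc
mt-Ts2: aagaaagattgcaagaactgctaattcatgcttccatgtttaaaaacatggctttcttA
mt-Tl2: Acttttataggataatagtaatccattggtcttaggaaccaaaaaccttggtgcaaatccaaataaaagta

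The gene mt-Atp8 (chrMT:7766-7969, plus strand) overlaps mt-Atp6 by 43 bases, which are in capitals, and it is shown because reads in that stretch fit both genes.
mt-Atp8: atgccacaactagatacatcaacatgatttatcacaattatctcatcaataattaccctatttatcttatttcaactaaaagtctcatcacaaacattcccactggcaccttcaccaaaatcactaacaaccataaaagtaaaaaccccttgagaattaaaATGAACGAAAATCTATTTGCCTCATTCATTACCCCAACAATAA

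Copies of mitochondrial sequence in the nuclear genome also matter for these counts. The first 23 bases of mt-Nd3 (chrMT:9459-9481, plus strand) are shown beside the same stretch of Gm28438, a pseudogene on chr1:24613097-24613119 (minus strand). They differ by the substitution T3C, counted from 1 at the 5′ end of mt-Nd3, and capitals mark that base.
mt-Nd3: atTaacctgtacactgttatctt
Gm28438: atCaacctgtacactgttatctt

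In 9 pairs of neighbouring genes the annotated ends overlap, by 1 to 43 bases, and the way reads in shared bases were counted is not given in the sources used here. The counts of mt-Atp8 and mt-Atp6, and those of the genes with a near-identical nuclear copy described further on, are therefore uncertain.

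Levels were compared between genes on the FPKM scale of the authors, which corrects for gene length and library size. In control mice mt-Co1, the catalytic subunit of complex IV, was the most abundant mitochondrial transcript, at 22666, 22844 and 25385 FPKM. The next was mt-Cytb, the cytochrome b of complex III, at 15926, 16075 and 18300.2 FPKM. Each of the pair was separated from the gene next below it in every control library. From mt-Co2 down to mt-Nd6 each of the next genes in the order (mt-Co2, mt-Nd1, mt-Co3, mt-Nd2, mt-Nd4, mt-Atp8, mt-Nd4l, mt-Atp6, mt-Nd5, mt-Nd6) overlapped its neighbour, with mean FPKM from 12374 down to 4471. The place of mt-Atp6 in that order rests on Control 5, since it was at 2681, 2568 and 14424 FPKM. In controls 2 and 4 it was the mRNA with the lowest FPKM. By its mean the lowest was mt-Nd3, a membrane subunit of complex I, at 3304 FPKM ± 258 (SD, n = 3). The glutamate tRNA gene mt-Te followed with 2564 FPKM ± 502 (SD, n = 3), ahead of both rRNA genes. mt-Rnr1, the small rRNA, had a mean of 761 FPKM ± 166 (SD, n = 3), and mt-Rnr2, the large rRNA, had 705 FPKM ± 181 (SD, n = 3). The other 21 tRNA genes ranged from 456 FPKM for mt-Tl1 down to 1.06 FPKM for mt-Tf, and selection for poly(A) tails acts differently on mRNAs, rRNAs and tRNAs.

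**Figure D1:**
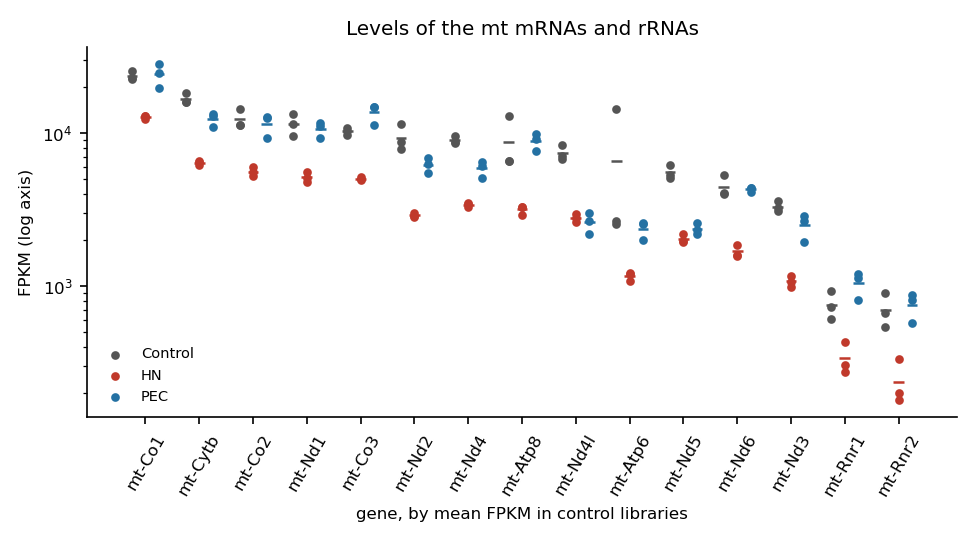
FPKM (log axis) of the 13 mitochondrially encoded mRNAs and 2 rRNAs in each of the 9 libraries, with dashes at the group means. HN mice lie lowest for most of these genes, and the means of mt-Nd4l are 7420 FPKM in control mice, 2796 in HN mice and 2620 in PEC mice.

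In HN mice the mitochondrial transcripts made up a much smaller part of the kidney libraries than in control mice. They took 13.3%, 12.9% and 16.3% of library counts in control mice, 6.01%, 6.22% and 6.34% in HN mice, and 12.99%, 10.3% and 13.7% in PEC mice. Every HN library lay below every control and PEC library, while control and PEC mice overlapped. The mean of HN mice was 0.437 times that of control mice, a difference of -7.98 points, and exact permutation of the libraries gave p = 0.1 (two-sided), the smallest p that 3 against 3 libraries allow. Since RNA of kidney tissue and not of single cells was sequenced, fewer cells rich in mitochondria and less mitochondrial RNA per cell cannot be told apart.

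**Figure D2:**
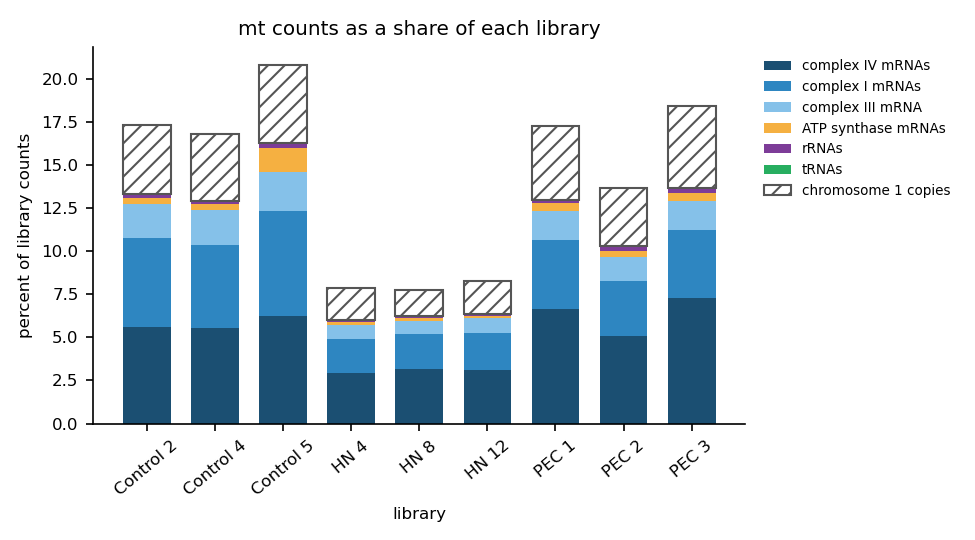
Percent of library counts on mitochondrially encoded genes in each library, stacked by class, with the hatched part for the 7 pseudogene copies on chromosome 1. Without the copies the bars reach 12.9% to 16.3% in control mice, 6.01% to 6.34% in HN mice and 10.3% to 13.7% in PEC mice.

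All 13 mRNAs and both rRNAs fell in HN mice against control mice. The rule for a call in edgeR was a fold of 1.5 or more together with an adjusted p of at most 0.05, with TMM scaling and adjustment over all genes tested. Under it 34 of the 37 genes were lower in HN mice, against 14.7% of all genes tested. edgeR called 0 of 37 higher, against 17.7% of all genes tested, and the number was also 0 at an unadjusted p of at most 0.05 and with DESeq2 or limma. The median change of the 37 genes was -1.95 on the log2 scale, a 3.86-fold lower level, and the median of all genes tested was -0.00.

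Among complex I subunits, mt-Nd2 took 0.999%, 0.897% and 1.29% of library counts in control mice, 0.328%, 0.333% and 0.348% in HN mice, and 0.808%, 0.635% and 0.740% in PEC mice. HN mice were lowest and PEC mice intermediate, with no overlap between any of the groups. Its log2 change in HN against control mice was -2.23 ± 0.17 (SE; adjusted p = 1.39e-05 in edgeR). mt-Nd1 and mt-Nd4, which like mt-Nd2 lie in the membrane arm of the complex, changed by -1.70 ± 0.16 and -1.93 ± 0.13. mt-Nd4l and mt-Nd5 changed by -1.95 ± 0.14 and -1.99 ± 0.13, mt-Nd3 by -2.15 ± 0.16, and mt-Nd6, the sole mRNA of the minus strand, by -1.94 ± 0.14.

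For complex III, mt-Cytb took 1.997%, 2.02% and 2.28% of library counts in control mice, 0.827%, 0.785% and 0.845% in HN mice, and 1.69%, 1.39% and 1.73% in PEC mice. Here too the groups formed 3 separate ranges, with HN mice lowest. The log2 change in HN mice was -1.92 ± 0.14 (SE; adjusted p = 8.87e-06 in edgeR).

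The complex IV transcripts had the smallest fitted falls among the mRNAs with all libraries in the fit. mt-Co1 took 3.84%, 3.87% and 4.26% of library counts in control mice, 2.13%, 2.24% and 2.23% in HN mice, and 4.33%, 3.36% and 4.98% in PEC mice. HN mice were below all other libraries, and PEC mice spread over a range that contained the control values. Its log2 change in HN mice was -1.42 ± 0.16 (SE; adjusted p = 0.000122 in edgeR), beside -1.57 ± 0.14 for mt-Co3 and -1.68 ± 0.17 for mt-Co2, which carries a copper centre of the enzyme.

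For ATP synthase, mt-Atp8 changed by -2.00 ± 0.27 on the log2 scale in HN mice (SE; adjusted p = 0.000361 in edgeR). mt-Atp6, which forms part of the proton channel, had 150766, 143810 and 838077 counts in control mice, 66987, 74771 and 61333 in HN mice, and 146178, 99372 and 115436 in PEC mice. Control 5 stood far above the other 8 libraries, and HN mice were lowest. The log2 change of mt-Atp6 in HN mice was -3.05 ± 0.64 (SE; adjusted p = 0.00434 in edgeR), and without Control 5 it was -1.68.

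Both rRNAs fell in HN mice. mt-Rnr1 had 58086, 47773 and 76435 counts in control mice, 34222, 26465 and 21881 in HN mice, and 65756, 79082 and 75410 in PEC mice. mt-Rnr2 had 87763, 70752 and 121558 counts in control mice, 43311, 25672 and 26426 in HN mice, and 76821, 101480 and 84176 in PEC mice. In either gene the HN libraries were below all others and the PEC libraries overlapped the control libraries. The log2 changes in HN mice were -1.70 ± 0.25 for mt-Rnr1 (SE; adjusted p = 0.000567 in edgeR) and -2.10 ± 0.30 for mt-Rnr2 (adjusted p = 0.000514).

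Of the 22 tRNA genes, 19 fell in HN mice, with a median log2 change of -1.95 over all 22. The glutamate tRNA mt-Te, which holds more counts than any other tRNA gene, had 13686, 12269 and 18408 counts in control mice, 3828, 4434 and 4603 in HN mice, and 8157, 6861 and 6696 in PEC mice. Its 3 groups did not overlap, and its log2 change in HN mice was -2.35 ± 0.15 (SE; adjusted p = 6.04e-06 in edgeR). The largest fitted fall among the tRNAs was that of the valine tRNA mt-Tv, at -3.11 ± 0.70, from 28, 27 and 57 counts in control mice to 5, 10 and 4 in HN mice. Not called were mt-Td at -1.04 (adjusted p = 0.0675 in edgeR), mt-Tf at -1.76 (adjusted p = 0.0946) and mt-Ts2 at -0.95 (adjusted p = 0.749). Without Control 4, mt-Td was called at -1.33. The call of mt-Ts1 was lost without Control 2 (-1.07), HN 8 (-1.34) or HN 12 (-1.19), and that of mt-Tt without HN 8 (-1.75) or HN 12 (-1.72). Scaling by library totals also lost the calls of mt-Ts1 (-0.74), mt-Tt (-1.22) and mt-Tp (-0.56). With limma on log2(FPKM + 1) mt-Ts1 (-0.56) and mt-Tp (-0.58) were not called, and in a fit of these 2 groups alone mt-Ts1 (-1.26) was not.

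When scaled by library totals alone, the median of all genes moved to 0.56 in HN against control mice, and that of the mitochondrial genes was -1.38, a smaller fall than with TMM. The mitochondrial median relative to that of all genes was -1.94. A change of scaling factors moves both medians alike, so this relative value is no test of the scaling. The share of higher genes among all called genes was 85.7% on that scale and 54.5% with TMM. On FPKM with limma that share was 81.9%. On the percent of library counts, HN mice lay below control mice in every library for 35 of the 37 genes, which held for 10.5% of all genes tested, and mt-Td and mt-Ts2 overlapped.

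Within the mitochondrial pool, complex I made up less and complex IV more in HN mice than in control mice. Most of the latter was mt-Co1, with a mean of 28.3% of the pool in control mice and 35.6% in HN mice. The means were 6.53% and 6.87% for mt-Co2, and 6.30% and 7.11% for mt-Co3. Shares of a pool depend on each other, so that a larger part for mt-Co1 by itself lowers the share of complex I. Complex I mRNAs took 38.8%, 37.2% and 37.3% of all mitochondrial counts in control mice, 32.6%, 32.8% and 34.1% in HN mice, and 31.1%, 31.5% and 28.7% in PEC mice. Complex IV mRNAs took 41.9%, 43.1% and 38.5% in control mice, 49.1%, 50.6% and 48.9% in HN mice, and 51.0%, 49.0% and 53.4% in PEC mice. The HN and PEC libraries were below the control libraries for complex I and above them for complex IV, and HN and PEC mice overlapped for complex IV alone (exact permutation p = 0.1 for each of these comparisons with control mice, two-sided). mt-Cytb took 14.9% ± 0.811 (SD, n = 3) of mitochondrial counts in control mice, 13.2% ± 0.566 in HN mice and 13.05% ± 0.404 in PEC mice, where HN and PEC mice overlapped. The ATP synthase mRNAs took 2.61%, 2.62% and 8.35% in control mice, 2.60%, 2.69% and 2.50% in HN mice, and 3.28%, 3.14% and 3.03% in PEC mice, with Control 5 apart from all others. Together the mRNAs made up 98.3% ± 0.179 (SD, n = 3) of mitochondrial counts in control mice, 98.5% ± 0.415 in HN mice and 97.7% ± 0.610 in PEC mice.

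Gene by gene, most differences between HN and control mice within the pool were under the fold of 1.5. Scaled to the summed mitochondrial counts, edgeR called 1 of 37 genes higher in HN mice, where 78.7% of all genes were, and 2 lower, where 0.977% were. The percent of mitochondrial counts was above control mice in every HN library for 4 genes (mt-Co1, mt-Co3, mt-Tk and mt-Tp) and below it for 12 genes, 7 of them mRNAs (mt-Nd2, mt-Nd3, mt-Nd4l, mt-Nd4, mt-Nd5, mt-Nd6 and mt-Cytb). Of all genes tested, 82.9% were above and 1.46% below in the same way. The other genes move together under this scaling, with a median of 1.73 over all genes tested. The shares of all genes given here are therefore largely set by the scaling, and the 37 genes cannot be judged against them. mt-Co1 took 28.8%, 30.0% and 26.2% of mitochondrial counts in control mice, 35.4%, 36.1% and 35.2% in HN mice, and 33.3%, 32.6% and 36.5% in PEC mice, so that control mice were lowest. The gene called higher was the proline tRNA mt-Tp, at 0.63 ± 0.16 (SE; adjusted p = 0.00301 in edgeR), and without HN 12 it was 0.58, under the fold. Called lower in edgeR were mt-Te, at -0.59 ± 0.15 (adjusted p = 0.00412), and mt-Atp6, at -1.16 ± 0.48 (adjusted p = 0.0418). Without Control 5 mt-Atp6 was at -0.06 and mt-Te at -0.54, and without Control 2, HN 4 or HN 8 mt-Te was at -0.58, -0.55 or -0.57, none of them called. The call of mt-Atp6 was also lost without HN 4 (-1.19), HN 8 (-1.18), HN 12 (-1.10) or PEC 2 (-1.16). With the chromosome 1 copies added, mt-Atp6 was at -0.35 and mt-Te at -0.58, and with mt-Co1 left out of the scaling they were at -0.98 and -0.43, none of them called. Calls were gained without HN 4 for mt-Rnr2 (-0.67) and mt-Ti (-0.996), without PEC 3 for mt-Ti (-0.67) and without Control 2 for mt-Td (1.08).

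**Figure D3:**
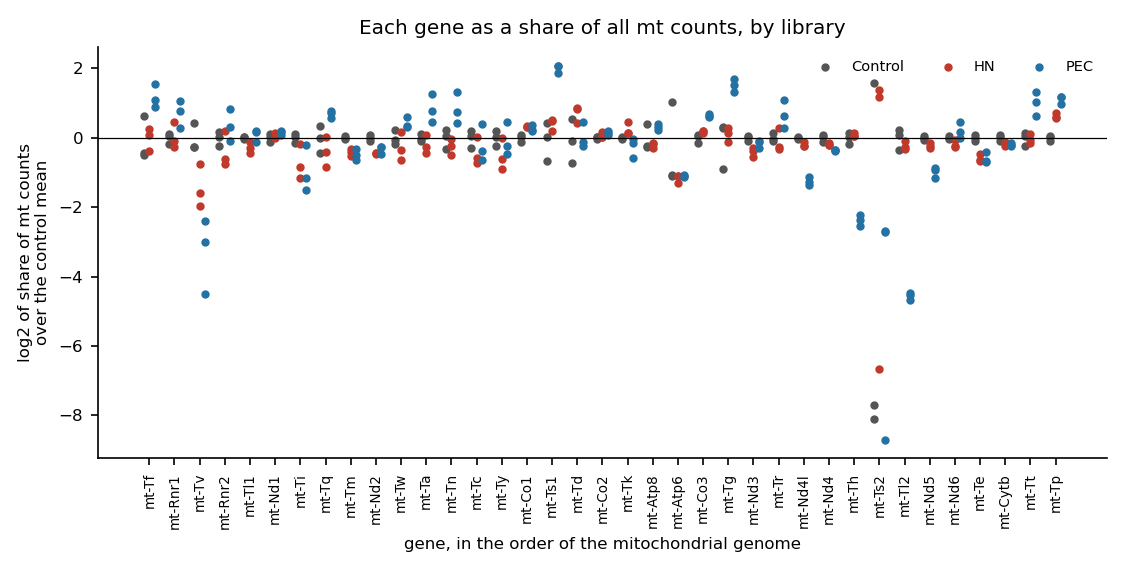
Percent of mitochondrial counts per gene and library as a log2 ratio to the control mean, in the order of the genes along the genome. The genes mt-Nd4l, mt-Nd4, mt-Th, mt-Tl2 and mt-Nd5 are lowest in PEC mice, and mt-Tp is higher in HN mice and highest in PEC mice.

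Mitochondrial transcripts made up more of the libraries in PEC mice than in HN mice, although not for every gene. The share of library counts was 12.3% ± 1.77 (SD, n = 3) in PEC mice, 1.99 times that of HN mice (exact permutation p = 0.1, two-sided). In edgeR 27 of the 37 genes were higher in PEC than in HN mice, against 13.4% of all genes tested, and 2 were lower, against 15.3%. Called higher were 10 of 13 mRNAs, both rRNAs and 15 of 22 tRNAs, with a median log2 change of 1.44 over the 37 genes, a 2.71-fold difference, beside -0.02 over all genes tested. The HN libraries serve in this comparison and in that of HN with control mice, so that the values of each are given side by side and not as separate evidence.

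The largest rises among the mRNAs were those of mt-Atp8 and mt-Co3. mt-Co3, which with mt-Co1 and mt-Co2 forms the core of complex IV, took 0.892%, 0.839% and 0.928% of library counts in control mice, 0.431%, 0.448% and 0.441% in HN mice, and 1.33%, 0.982% and 1.32% in PEC mice. PEC mice were above control mice and HN mice below, with no overlap. The log2 change of mt-Co3 in PEC against HN mice was 1.66 ± 0.14 (SE; adjusted p = 5.27e-05 in edgeR), and that of mt-Atp8 was 1.70 ± 0.27 (adjusted p = 0.00127). mt-Cytb changed by 1.17 ± 0.13, mt-Co1 by 1.14 ± 0.16, mt-Co2 by 1.26 ± 0.16 and mt-Nd6 by 1.57 ± 0.14. Among the other complex I mRNAs mt-Nd1 changed by 1.27 ± 0.16, mt-Nd2 by 1.31 ± 0.17, mt-Nd3 by 1.44 ± 0.16 and mt-Nd4 by 1.02 ± 0.13.

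The complex I mRNAs mt-Nd4l and mt-Nd5 were the mRNAs closest to the HN level in PEC mice. mt-Nd4l took 0.231%, 0.221% and 0.272% of library counts in control mice, 0.0864%, 0.0981% and 0.0925% in HN mice, and 0.101%, 0.0726% and 0.0896% in PEC mice. HN and PEC mice overlapped, and both lay below control mice. mt-Nd5 took 1.07%, 1.02% and 1.23% in control mice, 0.398%, 0.396% and 0.445% in HN mice, and 0.538%, 0.444% and 0.484% in PEC mice, where PEC 2 lay just below HN 12. The log2 change in PEC against HN mice was 0.12 ± 0.14 for mt-Nd4l (SE; adjusted p = 0.520 in edgeR) and 0.44 ± 0.13 for mt-Nd5 (adjusted p = 0.0223, under the fold of 1.5). mt-Atp6 was not called either, at 1.24 ± 0.60 (adjusted p = 0.136), but was called at the same 1.24 without Control 5 (adjusted p = 0.000233).

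A pair of tRNA genes, both in the sequences shown above, fell further in PEC mice. mt-Tl2 had 2106, 1842 and 1801 counts in control mice, 762, 725 and 705 in HN mice, and 78, 53 and 56 in PEC mice. mt-Th had 707, 632 and 723 counts in control mice, 318, 332 and 312 in HN mice, and 107, 93 and 97 in PEC mice. Each step downward separated the groups completely. On FPKM, mt-Tl2 was at 359, 315 and 297 in control mice, 130, 113 and 120 in HN mice, and 12.9, 10.1 and 12.04 in PEC mice, and its rank among the 37 genes went from 18 to 19 to 33. The log2 change in PEC against HN mice was -3.14 ± 0.15 for mt-Tl2 (SE; adjusted p = 9.39e-06 in edgeR), an 8.84-fold lower level, and -1.27 ± 0.15 for mt-Th (adjusted p = 0.000272).

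mt-Ts2, which lies between mt-Th and mt-Tl2, had 1295, 2 and 2 counts in control mice, 498, 492 and 2 in HN mice, and 1, 45 and 52 in PEC mice. Its libraries formed high and near-zero values within each group, unlike its neighbours, and edgeR called it in none of the comparisons with all libraries in the fit. Its log2 change in HN against control mice was -0.95 with all libraries and 6.74 without Control 2, and it was 1.62 with limma on FPKM, none of them called. Scaled to mitochondrial counts, it was called without Control 2, higher in HN than in control mice (8.48, adjusted p = 0.00537 in edgeR) and lower in PEC than in HN mice (-3.99, adjusted p = 0.0273). Both control libraries that were then left held 2 counts, so that the former value depends on the prior count of the fit.

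**Figure D4:**
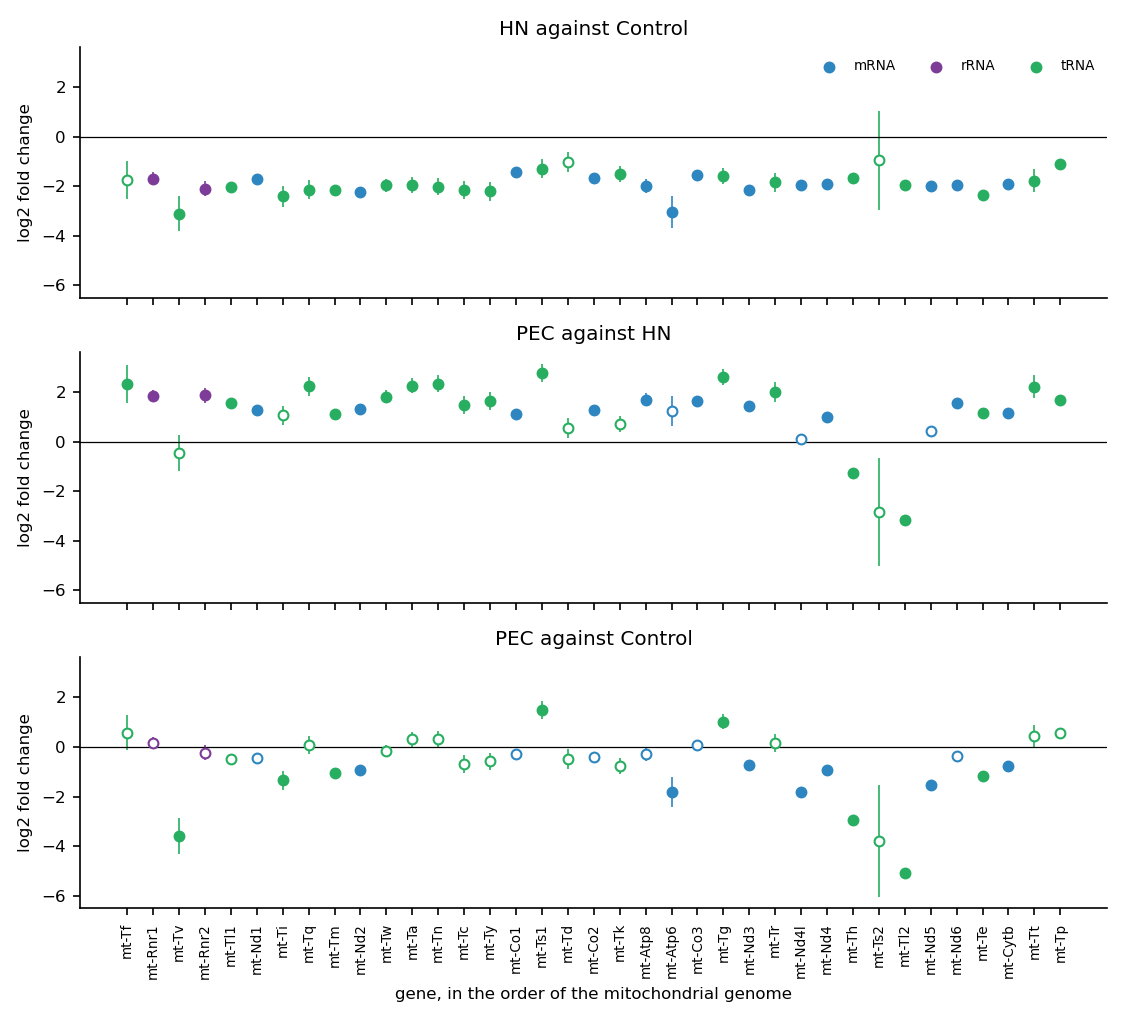
Log2 fold change ± SE (edgeR, TMM) of the 37 genes along the genome in each comparison, filled where called and open where not. HN against control mice is negative throughout as fitted with all libraries, and PEC against HN mice is positive except at mt-Th, mt-Ts2, mt-Tl2 and mt-Tv.

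Most tRNAs rose in PEC against HN mice. The largest rises were those of the serine tRNA mt-Ts1, from 14, 16 and 12 counts in HN mice to 79, 63 and 74, and the glycine tRNA mt-Tg, from 49, 50 and 39 to 221, 176 and 233. mt-Ts1 lies on the strand opposite mt-Co1, with which it shares 3 bases, and had 30, 22 and 18 counts in control mice. The log2 changes were 2.78 ± 0.38 for mt-Ts1 (SE; adjusted p = 0.000546 in edgeR) and 2.62 ± 0.31 for mt-Tg (adjusted p = 0.000274). mt-Te changed by 1.17 ± 0.15 and mt-Tp by 1.68 ± 0.16. Besides mt-Ts2, the tRNAs mt-Td (0.54), mt-Ti (1.07), mt-Tk (0.72) and mt-Tv (-0.46) were not called in edgeR. DESeq2 called mt-Ti with all libraries in the fit (1.06, adjusted p = 0.0173 in DESeq2). Without HN 4 or PEC 2 mt-Ti was called (1.39 and 1.37), as was mt-Tk without PEC 2 (0.94). The call of mt-Tf, which had at most 13 counts in any library, was lost on leaving out any library other than Control 5, with log2 changes from 2.05 to 2.48.

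With scaling by library totals the median of all genes moved to -0.21 in PEC against HN mice, and that of the mitochondrial genes was 1.24, beside 1.44 with TMM. Relative to all genes the mitochondrial median was 1.46, a value that a change of scaling factors hardly alters. The share of higher genes among all called genes was 29.6% on that scale, 28.6% on FPKM with limma and 46.8% with TMM. On the percent of library counts, PEC mice lay above HN mice in every library for 28 genes and below for 2, mt-Th and mt-Tl2, which held for 18.6% and 37.6% of all genes tested.

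Relative to the mitochondrial pool, the genes from mt-Nd4l to mt-Nd5 made up less in PEC mice. This stretch (chrMT:9877-13565, plus strand) holds the 6 genes mt-Nd4l, mt-Nd4, mt-Th, mt-Ts2, mt-Tl2 and mt-Nd5, and was singled out after its values were seen. It took 19.6%, 19.9% and 18.1% of mitochondrial counts in control mice, 16.4%, 16.6% and 16.8% in HN mice, and 12.3%, 12.6% and 11.7% in PEC mice. The 3 groups did not overlap, and PEC mice were lowest.

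Scaled to mitochondrial counts, edgeR called 7 genes higher in PEC than in HN mice, where 2.27% of all genes were, and 4 lower, where 64% were. These shares of all genes are again largely set by the scaling, with a median of -1.19 over all genes tested. The 4 lower mitochondrial genes belonged to that stretch, with mt-Tl2 at -4.33 ± 0.23 (SE; adjusted p = 3.23e-06 in edgeR) and mt-Th at -2.45 ± 0.23 (adjusted p = 1.09e-05). mt-Nd4l was at -1.07 ± 0.15 (adjusted p = 0.000104) and mt-Nd5 at -0.74 ± 0.16 (adjusted p = 0.00158). The higher ones were mt-Ts1 (1.60 ± 0.48), mt-Tg (1.43 ± 0.37), mt-Tn (1.13 ± 0.28), mt-Ta (1.06 ± 0.28), mt-Tq (1.05 ± 0.37), mt-Rnr2 (0.72 ± 0.29) and mt-Rnr1 (0.68 ± 0.24). The genes mt-Ta, mt-Tn, mt-Tg and mt-Ts1 kept their call when any library was left out. mt-Tw was called as well without HN 4 (0.90). The call of mt-Tq was lost without HN 8 (0.86), HN 12 (1.04), PEC 1 (1.02) or PEC 2 (1.04). Of the 8 tRNAs on the minus strand, also grouped after their values were seen, 4 were higher in edgeR, with a median of 0.76 and a range from -0.00 to 1.60. Of the 14 on the plus strand, 1 was higher and 2 were lower, with a median of -0.12.

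The rRNA calls on that scale rested on few libraries. That of mt-Rnr1 was lost without HN 8 (0.60), HN 12 (0.54), PEC 2 (0.48) or PEC 3 (0.66). For mt-Rnr2 it was lost without Control 2, 4 or 5 (0.72 in each case), HN 8 (0.55), HN 12 (0.60), PEC 2 (0.45) or PEC 3 (0.76), and with the chromosome 1 copies added (0.67) or no filter on low counts (0.72). As a class the rRNAs took 1.45%, 1.22% and 1.55% of mitochondrial counts in control mice, 1.74%, 1.03% and 1.03% in HN mice, and 1.48%, 2.67% and 2.03% in PEC mice. All groups overlapped, with PEC 2 the highest library (exact permutation p = 0.6 for HN against control mice and p = 0.2 for PEC mice against either group, two-sided). The tRNAs together took 0.267%, 0.237% and 0.251% in control mice, 0.207%, 0.190% and 0.196% in HN mice, and 0.179%, 0.201% and 0.211% in PEC mice. HN and PEC mice overlapped, and both were below control mice (exact permutation p = 0.1, two-sided). Without mt-Te all groups overlapped, at 0.131%, 0.111% and 0.106% in control mice, 0.121%, 0.102% and 0.0979% in HN mice, and 0.0945%, 0.0993% and 0.126% in PEC mice.

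Transcripts listed as lacking a poly(A) tail were compared as well. Of 15 such genes, 8 were in the table, so that the check by the list as a whole is void, and the genes found are described alone. Of the 8, 5 passed the filter on low counts. In HN against control mice edgeR called 0 of these 5, and so did DESeq2, limma and edgeR at an unadjusted p of at most 0.05. All 5 were higher in PEC than in HN or control mice, where 13.4% and 18.9% of all genes tested were. The most abundant, AY036118, was at 15.7, 12.2 and 3.28 FPKM in control mice, 4.39, 6.14 and 2.37 in HN mice, and 1704, 10156 and 1746 in PEC mice. Summed over the 8 genes, the level was 27.8, 24.8 and 13.5 FPKM in control mice, 14.9, 23.2 and 12.3 in HN mice, and 2148, 12790 and 2187 in PEC mice. PEC 2 was highest here and in the rRNA share of mitochondrial counts, and 2 of the 8 genes were at 0 in every control library. The part of poly(A) selection in the rRNA and tRNA values was not tested.

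Against control mice, 5 of the 7 complex I transcripts were lower in PEC mice, while the 3 complex IV transcripts were not called. The share of library counts differed by -1.85 points, 0.869 times the control mean (exact permutation p = 0.5, two-sided). It ranged from -2.52 to -0.810 points on leaving out a library, and was -0.810 without Control 5 and -0.847 without PEC 2. In edgeR 13 of the 37 genes were lower, against 17.4% of all genes tested, and 2 were higher, against 18.9%. The median log2 change was -0.48 over the 37 genes and 0.04 over all genes tested. The control libraries are those of the comparison with HN mice.

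Of the 13 mRNAs, 7 were lower in PEC than in control mice. mt-Nd4l was lowest at -1.82 ± 0.14 on the log2 scale (SE; adjusted p = 2.18e-05 in edgeR), and mt-Nd5 was at -1.54 ± 0.13 (adjusted p = 2.78e-05). mt-Nd4 (-0.92 ± 0.13), mt-Nd2 (-0.91 ± 0.17), mt-Cytb (-0.75 ± 0.13) and mt-Nd3 (-0.71 ± 0.16) were also called, and none of these 4 was called with scaling by library totals (-0.56, -0.55, -0.39 and -0.35). With limma on log2(FPKM + 1), mt-Nd2 (-0.58), mt-Cytb (-0.43), mt-Nd3 (-0.41) and mt-Atp6 (-0.97) were not called. Without PEC 2 mt-Nd3 was at -0.56 and not called. In edgeR mt-Atp6 was called at -1.81 ± 0.61 (adjusted p = 0.0374), and without Control 5 it was at -0.44, under the fold. Its call was also lost on leaving out any of the HN or PEC libraries, with log2 changes from -1.86 to -1.70. Scaling by library totals (-1.41) and a fit of these 2 groups alone (-1.79) lost it as well. Not called were mt-Co1 (-0.28), mt-Co2 (-0.42), mt-Co3 (0.08), mt-Atp8 (-0.30), mt-Nd1 (-0.43) and mt-Nd6 (-0.38), and the rRNAs mt-Rnr1 (0.15) and mt-Rnr2 (-0.22).

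Among the tRNAs mt-Tl2 had the largest difference from control mice, at -5.09 ± 0.16 on the log2 scale (SE; adjusted p = 6.31e-07 in edgeR), a 34.2-fold lower level. mt-Tv (-3.58 ± 0.73), mt-Th (-2.94 ± 0.16), mt-Ti (-1.35 ± 0.40), mt-Te (-1.18 ± 0.15) and mt-Tm (-1.04 ± 0.19) were also lower. Higher in edgeR were mt-Ts1, at 1.48 ± 0.36 (adjusted p = 0.00824), and mt-Tg, at 1.02 ± 0.29 (adjusted p = 0.0185). Without PEC 3 mt-Tg was at 0.86 and not called, while mt-Tc (-1.16), mt-Tl1 (-0.61) and mt-Ty (-0.99) were called. mt-Ti lost its call without Control 5 (-1.29) or PEC 1 (-1.23). mt-Tp, at 0.56, was called without Control 5 (0.65) or PEC 2 (0.72), with library totals (0.92) and with limma on log2(FPKM + 1) (0.86), by which mt-Tt was called as well (0.64). mt-Ti was not called with library totals (-0.98).

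Scaling by library totals moved the median of all genes to 0.40 in PEC against control mice, and the mitochondrial median was -0.12, closer to 0 than the -0.48 with TMM. Relative to all genes the mitochondrial median was -0.52, a value that a change of scaling factors hardly alters. The share of higher genes among all called genes was 76.6% on that scale, 70.7% on FPKM with limma and 52.1% with TMM. On the percent of library counts, PEC mice were above control mice in every library for 6 genes (mt-Co3, mt-Tg, mt-Tp, mt-Ts1, mt-Tt and mt-Tw) and below for 12, which held for 43.1% and 16.3% of all genes tested. On FPKM the mitochondrial genes took 29.4% ± 3.24 (SD, n = 3) of the sum in control mice, 15.9% ± 0.448 in HN mice and 25.1% ± 2.79 in PEC mice, with no overlap between any of the groups.

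Relative to the mitochondrial pool, edgeR called 7 genes higher in PEC than in control mice, where 37.1% of all genes were, and 6 lower, where 5.77% were. Here too the shares of all genes are largely set by the scaling, with a median of 0.60 over all genes tested. mt-Co3 took 6.70%, 6.496% and 5.71% of mitochondrial counts in control mice, 7.16%, 7.21% and 6.96% in HN mice, and 10.2%, 9.54% and 9.65% in PEC mice. Its 3 groups were separate and PEC mice highest, with a log2 change of 0.64 ± 0.15 against control mice (SE; adjusted p = 0.00654 in edgeR), or 0.57 and under the fold without Control 5. With the counts of its chromosome 1 copy added it was 0.55, also under the fold. The other higher genes were mt-Ts1 (2.01), mt-Tg (1.53), mt-Tp (1.11), mt-Tn (0.88), mt-Ta (0.87) and mt-Rnr1 (0.75). Calls were lost without Control 2, Control 4 or PEC 3 for mt-Tn (0.90, 0.75 and 0.59) and mt-Ta (0.85, 0.83 and 0.62), and without Control 2, Control 4 or PEC 2 for mt-Rnr1 (0.78, 0.67 and 0.56).

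The lower genes on that scale were mt-Tl2 (-4.55), mt-Tv (-3.00), mt-Th (-2.37), mt-Nd4l (-1.26), mt-Nd5 (-0.97) and mt-Te (-0.59). mt-Nd4l took 1.73%, 1.71% and 1.67% of mitochondrial counts in control mice, 1.44%, 1.58% and 1.46% in HN mice, and 0.777%, 0.705% and 0.657% in PEC mice. mt-Nd5 took 8.06%, 7.89% and 7.58% in control mice, 6.63%, 6.37% and 7.02% in HN mice, and 4.14%, 4.31% and 3.55% in PEC mice. For either gene the groups were separate, with PEC mice lowest. Without Control 5, PEC 1 or PEC 3 mt-Te was at -0.54, -0.54 or -0.55 and not called, and with mt-Co1 left out of the scaling it was at -0.47. mt-Atp6 was at -1.10 (adjusted p = 0.0788 in edgeR) and was called without Control 2 (-1.44) or Control 4 (-1.44). mt-Ti was called without PEC 3 (-1.31).

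A block of chromosome 1 copies a long piece of the mitochondrial genome, and its genes held many counts. It spans chr1:24611535-24616197 and holds 7 pseudogenes on the minus strand, which match mt-Co3 (Gm28437), mt-Atp6 (Gm10925), mt-Co2 (Gm28661), mt-Nd4 (Gm28439) and mt-Nd4l (Gm10222) at 100% of aligned bases. For Gm28439 the aligned part was 876 of the 1378 bases of mt-Nd4. Gm29216 matched 483 of the 1545 bases of mt-Co1 at 99.8%, and Gm28438 matched 345 of the 348 bases of mt-Nd3 at 99.7%. Together the copies took 3.99%, 3.85% and 4.55% of library counts in control mice, 1.85%, 1.54% and 1.93% in HN mice, and 4.29%, 3.39% and 4.75% in PEC mice. HN mice were lowest, as for the mitochondrial genes themselves, and control and PEC mice overlapped. Copies elsewhere in the genome held at most 7079 counts each in any library. With the copies on chromosome 1 added, the share of library counts was 17.3%, 16.8% and 20.8% in control mice, 7.86%, 7.75% and 8.27% in HN mice, and 17.3%, 13.7% and 18.4% in PEC mice.

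Copy counts came close to those of their mitochondrial gene for several genes. Those of Gm10222 were 74.5% to 98.6% of mt-Nd4l, those of Gm28438 79.0% to 104% of mt-Nd3, and those of Gm28437 74.4% to 99.2% of mt-Co3, with HN 8 lowest each time. Gm10925 had 437%, 422% and 95.0% of the counts of mt-Atp6 in control mice, 428%, 349% and 498% in HN mice, and 443%, 463% and 481% in PEC mice. Control 5, the library with high mt-Atp6, was alone near parity. Whether the same reads were counted at both places is not given in the sources used here, and the levels of these 7 mitochondrial genes are uncertain to that extent. In edgeR all 7 copies fell in HN against control mice, from -2.29 for Gm28438 to -1.46 for Gm29216, and 5 rose in PEC against HN mice. Gm10222 was not called there by edgeR (0.20, adjusted p = 0.325), as its gene mt-Nd4l was not, and Gm28439 was not called (0.54) where its gene mt-Nd4 was called at 1.02. With the copy counts added to each gene, mt-Atp6 was at -2.16 in HN against control mice, and it was called in PEC against HN mice at 1.35.

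**Figure D5:**
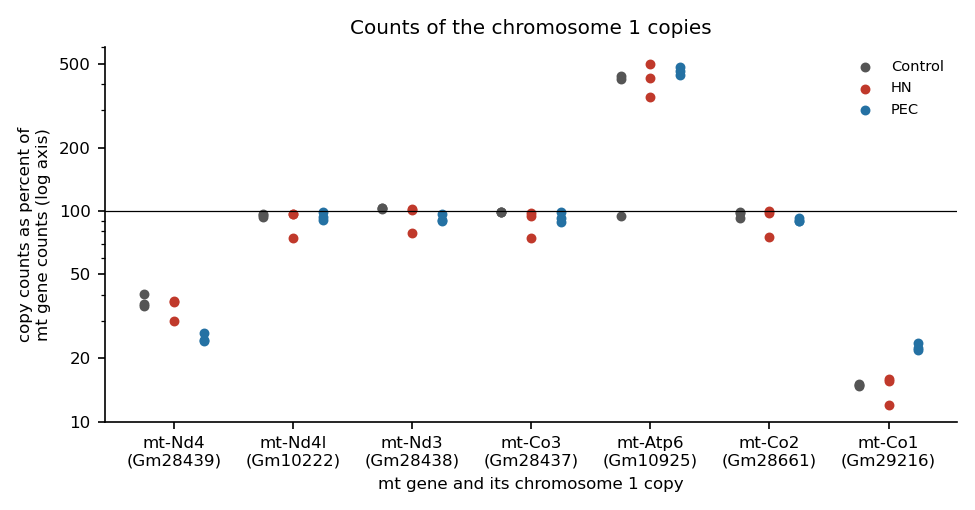
Counts of each of the 7 chromosome 1 copies as percent of the counts of its mitochondrial gene (log axis), for the 9 libraries. For Gm10925 and mt-Atp6 Control 5 is at 95.0% and the other libraries at 349% to 498%.

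The nuclear genes that serve the mitochondrial genome were examined in 7 lists of 139 distinct genes, all of which were tested in the same edgeR fit. In HN against control mice 77 fell and 1 rose, in PEC against HN mice 29 rose and 7 fell, and in PEC against control mice 2 were higher and 55 lower. The shares of all genes tested were 14.7% lower and 17.7% higher, then 13.4% higher and 15.3% lower, then 18.9% higher and 17.4% lower. They serve as background for the edgeR calls of each list and of the cell type markers. On the FPKM scale with limma the median of all genes was at 0.35, -0.19 and 0.19. There 19 list genes fell and 1 rose, then 10 rose and 11 fell, then 7 were higher and 24 lower, of 137 genes tested. Of all 15508 genes tested with limma, 1024 fell and 4649 rose, then 1356 rose and 3390 fell, then 3581 were higher and 1485 lower. These counts are the background for the limma calls of each list and of the cell type markers. Among nuclear subunits and partners of the respiratory chain 19 of 20 were lower in HN mice (median -1.10), 9 were higher in PEC against HN mice (median 0.48), and 11 were lower in PEC against control mice (median -0.65). With limma on FPKM the counts for these 20 were 10 lower, then 7 higher, then 2 higher and 3 lower. Their summed FPKM was 3433, 3513 and 3274 in control mice, 2368, 2289 and 2403 in HN mice, and 2848, 2969.8 and 2807 in PEC mice, with PEC mice between the others. Examples are Ndufs1 of complex I (-1.30 ± 0.13, SE), Uqcrfs1 of complex III (-1.26 ± 0.10) and Sdha of complex II (-1.23 ± 0.10) in HN mice. Cox5b of complex IV (1.32 ± 0.10), Sdhb of complex II (0.93 ± 0.07) and Atp5o of ATP synthase (0.92 ± 0.13) rose in PEC against HN mice.

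Of 19 factors for upkeep of mitochondrial DNA 7 fell in HN mice, 2 rose and 2 fell in PEC against HN mice, and 6 were lower in PEC than in control mice. Their median log2 changes in these comparisons were -0.23, 0.21 and 0.03, beside -0.00, -0.02 and 0.04 over all genes tested. Their summed FPKM overlapped between all groups, with 89.0 to 100.3 in control mice, 92.1 to 100.8 in HN mice and 88.9 to 94.5 in PEC mice. With limma on FPKM 0 of the 19 were lower in HN mice, 0 were higher and 2 lower in PEC against HN mice, and 1 was higher and 2 were lower in PEC against control mice. The topoisomerase Top1mt (-0.93), the nuclease Mgme1 (-0.83) and the helicase Twnk (-0.77) fell in HN mice. Twnk (0.60) and Atad3a (0.64) rose in PEC against HN mice, while Tymp (-1.68) and Rrm2b (-0.88), both of nucleotide metabolism, fell. Of 11 transcription genes 5 fell in HN mice, among them Mrpl12 (-1.10), the elongation factor Tefm (-0.92) and Tfb2m (-0.91), which opens the promoter. In PEC against HN mice 1 of the 11, Mterf1b (0.98), rose, and in PEC against control mice 1 was higher and 4 were lower. The medians of this list were -0.55, 0.24 and -0.42 in the same order. Of these 11, limma on FPKM called 0 in HN against control mice and 0 in PEC against HN mice, and 1 higher and 1 lower in PEC against control mice. Of 33 genes for processing and decay of mitochondrial RNA 15 fell in HN mice, such as Lrpprc (-0.97), which stabilizes the mRNAs, and Grsf1 (-1.06) and Endog (-1.13). In PEC against HN mice 6 rose, such as Hsd17b10 (0.90), a subunit of the enzyme that cuts the 5′ ends of tRNAs, Fastk (0.84) and Mrm3 (0.82), and Pde12 (-0.62), which removes poly(A) tails, fell. In PEC against control mice 10 of the 33 were lower. The medians were -0.56, 0.26 and -0.21. By limma on FPKM 0 of the 33 were lower in HN mice, 1 was higher and 3 were lower in PEC against HN mice, and 2 were higher and 4 lower in PEC against control mice. The limma counts of this paragraph stand beside those of all 15508 genes. These were 4649 higher and 1024 lower, then 1356 higher and 3390 lower, then 3581 higher and 1485 lower.

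Of 15 regulators of mitochondrial biogenesis, 8 fell and 1, Pprc1 (0.81), rose in HN mice. The deacetylase Sirt3 (-1.63), Perm1 (-1.49) and the nuclear receptor Ppara (-1.38) fell furthest. Perm1 (1.13) and Sirt3 (0.67) rose in PEC against HN mice, and Ppara (-1.84), Gabpa (-1.07) and Esrrg (-1.06) fell. The sum of this list was 128, 133 and 128 FPKM in control mice, 116, 101 and 110.3 in HN mice, and 72.3, 73.2 and 66.1 in PEC mice, so that PEC mice were lowest, and 9 of the 15 were lower in PEC than in control mice. The medians were -0.94, -0.34 and -0.97. For this list limma on FPKM gave 1 higher and 3 lower in HN mice, 0 higher and 3 lower in PEC against HN mice, and 7 lower in PEC against control mice. Over all 15508 genes limma called 4649 higher and 1024 lower, then 1356 higher and 3390 lower, then 3581 higher and 1485 lower. Among 22 translation genes 9 fell in HN mice, with the initiation factor Mtif3 (-1.22) and the elongation factors Gfm1 (-1.22) and Gfm2 (-1.08) in front. In PEC against HN mice 6 rose, led by Mrpl11 (0.76), Mtif3 (0.66) and Gfm2 (0.63), and 1 fell, Taco1 (-0.99), an activator of mt-Co1 translation. Against control mice 1 was higher and 6 were lower. Medians of these genes were -0.54, 0.25 and -0.41. Of 21 tested with limma on FPKM, 1 was lower in HN mice, 0 were higher and 2 lower in PEC against HN mice, and 3 were lower in PEC against control mice. Of 20 other organelle genes 15 fell in HN mice, such as the chaperone Hspd1 (-1.57) and Bnip3 (-1.30), and 5 of 19 did with limma on FPKM. Of the 20, 3 rose in PEC against HN mice, where 13.4% of all genes did, or 2 of 19 with limma on FPKM, by which 1 fell. Of these genes, 10 were lower in PEC than in control mice, or 4 of 19 with limma on FPKM, where 1 was higher. Their medians were -0.76, 0.33 and -0.59.

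Cell type markers differed between the groups as well, and of the 50 markers tested 18 rose and 18 fell in HN mice, 14 rose and 7 fell in PEC against HN mice, and 14 were higher and 16 lower in PEC than in control mice. Of all genes tested, 17.7% rose and 14.7% fell, 13.4% rose and 15.3% fell, and 18.9% were higher and 17.4% lower. Of 8 proximal tubule markers 7 fell in HN mice, 6 rose in PEC against HN mice, and 8 were lower in PEC than in control mice. Their summed FPKM was 2268, 2335 and 2386 in control mice, 736, 743 and 782 in HN mice, and 1332, 1625 and 1060.3 in PEC mice, with Slc27a2 the most abundant. Like the mitochondrial share, this sum was lowest in HN mice, but PEC mice stayed below control mice. All 4 injured tubule markers rose in HN mice, from 4.93, 4.24 and 1.87 FPKM in control mice to 491, 501 and 490.3, and were at 301, 330 and 353 in PEC mice, with Havcr1 the most abundant. In PEC against HN mice 1 of these 4, Sox9, fell, and all 4 were higher in PEC than in control mice.

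All 4 macrophage markers rose in HN mice, summing to 30.1, 32.2 and 28.5 FPKM in control mice, 873, 899 and 789 in HN mice, and 307, 314 and 411 in PEC mice, led by Lyz2. In PEC against HN mice 3 of them fell, and 4 were above control mice. All 4 fibroblast markers rose in HN mice, from sums of 28.9, 27.9 and 24.9 FPKM to 166, 168 and 160.1, and were at 108, 117 and 97.4 in PEC mice, led by Acta2. Of these, 2 fell in PEC against HN mice and 3 were higher than in control mice. The 3 T cell markers rose in HN mice (Cd8a most abundant, sums of 0.53, 0.65 and 0.67, then 3.30, 6.62 and 4.31, then 2.24, 2.82 and 2.86 FPKM) and stayed above control mice in PEC mice, where edgeR called 0 in PEC against HN mice, while 1 was lower with DESeq2, 1 with limma and 2 at an unadjusted p of at most 0.05. B and plasma cell markers rose in HN mice for 2 of 3, and 1 of them, Jchain, fell in PEC mice. Their sums were 2.04, 3.51 and 5.36 FPKM in control mice, 13.9, 28.9 and 28.7 in HN mice, and 2.73, 3.67 and 1.79 in PEC mice.

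Of 3 red blood cell markers 3 fell in HN mice, 3 rose in PEC against HN mice and 2 were lower in PEC than in control mice. Their sums were 187, 172 and 275 FPKM in control mice, 50.7, 40.2 and 32.8 in HN mice, and 188, 226 and 214 in PEC mice, led by Hba-a1. Of 3 thick limb markers 2 fell in HN mice and 2 were lower in PEC than in control mice, although the sum, with Umod the most abundant, was 1092, 1244 and 1115 FPKM in control mice, 1558, 1391 and 1541 in HN mice, and 1315, 1345 and 1242 in PEC mice. Of 3 distal convoluted tubule markers 1 rose and 2 fell in HN mice, 2 rose in PEC against HN mice and 1 was lower than in control mice (Slc12a3 most abundant, with sums of 60.1, 56.9 and 73.3, then 46.6, 47.2 and 51.5, then 68.4, 87.0 and 65.6 FPKM). Of 4 collecting duct markers 3 fell in HN mice, 2 rose in PEC against HN mice and 2 were lower than in control mice (Aqp2 most abundant, with sums of 308, 347 and 159, then 177, 121 and 174, then 187, 176 and 243 FPKM).

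Of the 3 podocyte, 2 neutrophil and 3 adipocyte markers tested, edgeR called 0 in each comparison, also at an unadjusted p of at most 0.05. DESeq2 and limma called 0 of them too, except for 1 neutrophil marker that limma called higher in HN mice. Of 3 endothelial markers 1 was called each time. Podocyte sums, led by Podxl, were 54.5, 53.8 and 53.2 FPKM in control mice, 77.7, 71.4 and 68.6 in HN mice, and 75.4, 72.7 and 66.2 in PEC mice. Endothelial sums, led by Emcn, ranged from 22.8 to 35.6 FPKM over the 9 libraries, with Kdr lower in HN mice and Emcn higher in PEC against HN mice. Neutrophil sums, led by S100a9, ranged from 3.72 to 26.3 FPKM, with 1 of 3 genes at 0 in every control library and 2 tested. Adipocyte sums, led by Adipoq, were 4.01, 0.10 and 0.05 FPKM in control mice, 0.20, 0.38 and 8.65 in HN mice, and 0.22, 0.16 and 108 in PEC mice, so that Control 2, HN 12 and PEC 3 stood apart. The part of any of these cell types in the mitochondrial values was not tested.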

How the data were processed

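Kidney RNA from 9 mice, 3 per group, was analysed from the deposited gene table, each library coming from a different mouse and made after poly(A) selection. For every gene and library the deposited table holds a count, and an FPKM value calculated by the authors. Per the submitters' processing notes, Bowtie 0.12.2 and the assemblies mm8 and mm9 were used, with no role given for each assembly. The counting program, the strand setting and the handling of reads with several matches are not given in the sources used here. The coordinates of the table are those of GRCm38, and for all 37 mitochondrial genes, as for 51991 of 55144 genes compared, start and end equal GENCODE M21. Atp5o, Rmrp and Terc occur in 2 lines each, the second at 0, and were summed by symbol. The FPKM denominators implied by counts and gene lengths were 1.09 to 1.14 times the library totals.

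Total counts ran from 57714111 to 81069646 per library. The 95% Wilson interval of the mitochondrial share of a library is at most 0.00886 percentage points to either side, which covers counting error only. Over the mitochondrial genes, chi-square per degree of freedom between replicates ran from 264 to 11817 over 9 pairs, so that the spread between replicates was above counting error in each pair.

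Genes were tested with edgeR 4.0.16 (quasi-likelihood, TMM, filterByExpr) in R 4.3.3, in a single fit over the 9 libraries that gave all 3 comparisons, with Benjamini-Hochberg adjustment over all 21392 genes tested. A call needed a fold of 1.5 or more and an adjusted p of at most 0.05. A second edgeR fit used the summed mitochondrial counts of each library as its size. Log2 changes in the text are from the first fit unless they are said to be scaled to mitochondrial counts, and each is given with its standard error (SE) where shown. Shares were compared by exact two-sided permutation over libraries (scipy 1.17.1), for which p = 0.1 is the smallest value that 3 against 3 allow. The edgeR fit was tested on simulated data, where it recovered changes at low counts less often than at high counts. Further tools were numpy 2.4.6, pandas 2.3.3, matplotlib 3.10.9 and blastn 2.17.0, which searched GENCODE M21 transcripts for copies of mitochondrial genes at 90% identity or more over at least 50 bases.

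The members, the 7 lists of nuclear genes for mitochondrial functions, the cell type markers and the transcripts without a poly(A) tail were chosen with earlier results of these data known. All mitochondrial genes that passed the filter could be named, and from each list up to 3 of the largest rises and up to 3 of the largest falls among called genes in HN against control mice and in PEC against HN mice. Alternatives were scaling by library totals, TMM from other genes, DESeq2 1.42.0, limma 3.58.1 on log2(FPKM + 1) and log2(FPKM + 0.1) where the mean FPKM reached 0.5, no filter or that FPKM minimum, an unadjusted p, an adjusted p alone, fits of 2 groups, other denominators for shares, and leaving out each library. No library was left out of the analyses otherwise.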

Additional observations from a re-analysis of the deposited data

How the results depend on the processing

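Over all alternatives, 0 log2 changes of a called gene reversed. Of the calls with scaling to the library, 31 of 34 lower in HN against control mice held in every setting, with 31 to 36 lower over the settings and 32 to 35 on leaving out a library. In PEC against HN mice 26 of 27 higher and 2 of 2 lower held in every setting. In PEC against control mice 7 of 13 lower and 1 of 2 higher did. There 7 were lower when scaled by library totals and 11 to 15 on leaving out a library, and 4 were higher with limma at either pseudocount and 1 to 3 on leaving out a library. Of all genes tested, 1962 of 21392 were lower with library totals. With limma 3581 of 15508 were higher at a pseudocount of 1 and 4685 at 0.1. On leaving out a library 3414 to 3698 were lower and 3629 to 3908 higher, of 22071 to 22315. Apart from the fits scaled to mitochondrial counts, edgeR, DESeq2 and limma called 0 of the 37 mitochondrial genes higher in HN than in control mice in any setting, an unadjusted p included.

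Scaled to mitochondrial counts, 0 to 3 were higher in HN mice on leaving out a library. Lower in HN mice were 4 at an adjusted p alone, 0 without the most counted gene in the size, 0 with copy counts added, 0 with the size from genes without a chromosome 1 copy, and 0 to 3 on leaving out a library. On leaving out a library 4 to 8 were higher in PEC than in HN mice and 4 to 7 in PEC than in control mice, and the lower genes numbered 4 to 5 and 5 to 7. Calls lost under some alternative numbered 12 in 3 genes, 9 in 1 gene and 26 in 7 genes with library scaling, and 16 in 3, 17 in 3 and 17 in 5 with scaling to mitochondrial counts. The order is HN with control mice, then PEC with HN mice, then PEC with control mice.

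The mitochondrial share of the library differed by -13.5, 9.16 and -4.30 points on summed FPKM in the same order, and with copies added by -10.3 and 8.50 points in the former pair. On leaving out a library it ranged from -8.60 to -6.94, from 5.46 to 7.13 and from -2.52 to -0.810 points. The cause was not tested for any of these differences.

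The alternatives with copy counts added or genes without a copy were chosen after seeing the data. DESeq2 gave no value for mt-Ts2. No paired analysis was possible because the groups share fewer than 2 replicate numbers (2, 4 and 5, then 4, 8 and 12, then 1, 2 and 3). Depth limits the tRNA genes most, such as mt-Tf with at most 13 counts in any library.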
